A study of Mus musculus with 4 samples.

Results

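The genes described here are 8 components of the caspase machinery of apoptosis: the apoptosome genes Casp9, Apaf1 and Cycs, the inhibitor antagonist Diablo, and the caspases Casp8, Casp2, Casp12 and Casp6. They were taken by name, as the Ensembl identifiers that map to these symbols, and are 8 of the 20089 genes in the deposited tables; each was found in all 4 tables. The rule uses no measured value, but the genes were picked with earlier results of these data known. RNA sequencing was done on HT22, an immortalised mouse line derived from hippocampal neurons, labelled as of strain C57BL/6. Every culture carried a lentivirus: either the control negative virus or one targeted against Neat1, a nuclear long noncoding RNA that scaffolds paraspeckles. Each of these was grown in DMEM/F12 with 10% FBS (normal culture) or under OGD (oxygen and glucose deprivation), a culture model of ischaemia. The study asked which mRNAs differ with Neat1 knockdown without stress and under it. There was 1 library for each of the 4 groups, so nothing below has a replicate check and no p-value is given. The labels state neither how long OGD lasted nor the promoter of the virus.

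In the mitochondrial pathway of apoptosis, cytochrome c (encoded by Cycs) leaves the mitochondrion and binds APAF1, which assembles into a wheel-shaped complex, the apoptosome, that recruits and activates the initiator caspase encoded by Casp9. DIABLO (also called SMAC) is released with cytochrome c and binds inhibitor of apoptosis proteins, which otherwise hold caspases in check. Casp8 encodes the initiator of the death receptor pathway, Casp2 an initiator activated on a platform called the PIDDosome, Casp12 a caspase linked in rodents to endoplasmic reticulum stress, and Casp6 an effector. Caspases are made as inactive precursors, so a transcript level says how much message there was and nothing on activity.

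The promoters of 4 members are shown because Casp9, Cycs and Casp12 were the members that passed a 2-fold difference in at least 1 comparison and Diablo stood at its edge. Each is the RefSeq sequence (GRCm38.p6) from 250 bases before to 50 after the start, 5′ to 3′ on the gene's strand: chr4:141793362-141793661 (plus) for Casp9, chr6:50566520-50566819 (minus) for Cycs, chr5:123524115-123524414 (minus) for Diablo and chr9:5345226-5345525 (plus) for Casp12. Capitals mark matches, on either strand, to any of 5 short motifs: ACGTG and GCGTG, both forms of the hypoxia response core, TGACGTCA, the cAMP response element, GCATGCGC, a core bound by the respiratory-gene factor NRF1, and TGATGNAA, a CHOP and ATF4 composite site.
Casp9: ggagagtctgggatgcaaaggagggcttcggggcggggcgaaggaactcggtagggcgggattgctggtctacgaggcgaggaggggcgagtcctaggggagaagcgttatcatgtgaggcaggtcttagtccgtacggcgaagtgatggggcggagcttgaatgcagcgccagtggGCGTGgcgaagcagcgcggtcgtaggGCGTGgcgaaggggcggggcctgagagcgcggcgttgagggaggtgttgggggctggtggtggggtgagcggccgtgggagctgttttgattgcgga
Cycs: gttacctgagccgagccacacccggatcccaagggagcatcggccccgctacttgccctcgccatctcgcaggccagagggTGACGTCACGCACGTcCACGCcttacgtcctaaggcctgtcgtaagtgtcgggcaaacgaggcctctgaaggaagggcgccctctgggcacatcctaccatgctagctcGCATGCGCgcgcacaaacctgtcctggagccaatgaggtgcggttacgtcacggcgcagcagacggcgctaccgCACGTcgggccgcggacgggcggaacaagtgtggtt
Diablo: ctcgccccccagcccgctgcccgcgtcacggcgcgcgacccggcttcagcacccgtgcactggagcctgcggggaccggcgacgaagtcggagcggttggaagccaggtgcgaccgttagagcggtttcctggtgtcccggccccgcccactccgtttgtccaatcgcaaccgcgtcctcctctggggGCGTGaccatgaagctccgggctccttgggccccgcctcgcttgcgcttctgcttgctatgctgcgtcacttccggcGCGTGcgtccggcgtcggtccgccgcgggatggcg
Casp12: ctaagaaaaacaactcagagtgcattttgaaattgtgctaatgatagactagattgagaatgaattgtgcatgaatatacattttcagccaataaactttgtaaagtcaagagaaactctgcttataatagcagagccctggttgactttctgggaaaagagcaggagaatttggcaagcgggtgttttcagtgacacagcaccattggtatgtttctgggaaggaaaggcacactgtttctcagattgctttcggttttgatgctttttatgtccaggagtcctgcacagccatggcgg

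In the Cycs window there was 1 cAMP response element, 1 NRF1 core, 2 matches to ACGTG and 2 to GCGTG, some of which overlap. The Casp9 and Diablo windows each held 2 matches to GCGTG and none to the other 4 motifs, and the Casp12 window held none of the 5. Of the 4 members not printed, Apaf1 had 1 match to ACGTG, 2 to GCGTG and 1 NRF1 core, Casp2 had 1 match to GCGTG, Casp6 had 1 to ACGTG, and Casp8 had none. Among 32851 promoters of this length in the table, 19.6% held ACGTG, 32.4% GCGTG, 1.79% TGACGTCA, 2.71% GCATGCGC and 3.97% TGATGNAA. The windows also differed in base composition: GC content was 41% for Casp12 and 42% for Casp8, and between 62% (Casp6) and 74.7% (Apaf1) for the other 6, against a median of 52.7% over all promoters.

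Libraries held between 17232866 and 20764430 reads assigned to genes. Levels are CPM, the counts of a gene scaled to library size with TMM factors, and their 95% intervals are exact Poisson intervals that cover counting error only. Ratios are log2 ratios of CPM with 0.5 CPM added, while folds and intervals are computed without the added 0.5. A gene was counted higher or lower at a 2-fold ratio on that log2 scale, a rule of size and not a test, if it had at least 20 reads in the higher library. The target Neat1 was 1.60-fold lower with knockdown in normal culture and 1.77-fold lower under OGD, both short of that rule. Neat1 was also lower with OGD, 2.60-fold in control and 2.87-fold in knockdown cells, so control cells under OGD (74.4 CPM) held less of it than knockdown cells in normal culture (121 CPM). The libraries also differed in markers of brain cells, which were checked because the line is labelled as hippocampal neurons. The summed level of 22 markers of neurons, glia, endothelium and blood was 3075 CPM in control cells in normal culture, 24.6 CPM in knockdown cells in normal culture, 45.8 CPM in control cells under OGD and 277 CPM in knockdown cells under OGD. In these 4 libraries, in the same order, 17, 6, 9 and 16 of the 22 had at least 20 reads, and the 8 neuronal markers summed to 2734, 9.40, 21.2 and 160 CPM. C1qa was at 0 reads in knockdown cells in normal culture. Gfap, Aqp4, Cx3cr1 and Cldn5 were at 0 reads in control cells under OGD. Not all markers followed the total: the microglial marker Csf1r held 89, 172, 149 and 180 reads in the same library order. The 3 microglial markers summed to 8.67, 8.05, 9.75 and 9.91 CPM. In bulk RNA, fewer cells of a kind and less RNA per cell cannot be told apart. Where the marker RNA came from was not tested.

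**Figure D1:**
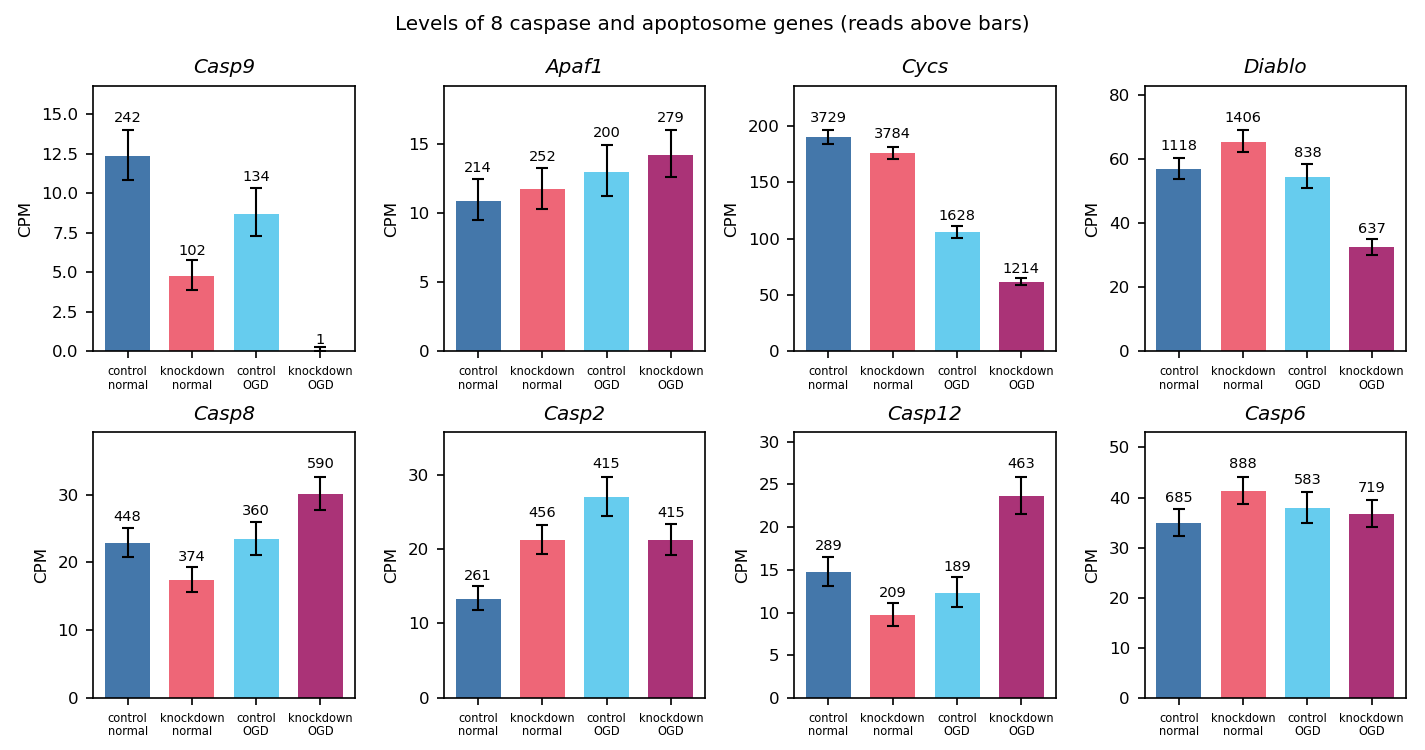
Level of each of the 8 genes in CPM (vertical axis, from 0, a different scale in each panel) in the 4 libraries (bars, 1 library each), with the read count above each bar and whiskers for the 95% Poisson interval of counting. Casp9 has 1 read in knockdown cells under OGD, Cycs is lower in both OGD libraries, and Apaf1 and Casp6 differ little in CPM.

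Casp9 showed the widest range of the 8 genes. It lies on chromosome 4 (141793612 to 141815976, plus strand, GRCm38; ENSMUSG00000028914). It held 242 reads in control cells in normal culture (12.3 CPM, 10.8 to 14.0), 102 in knockdown cells in normal culture (4.75 CPM, 3.87 to 5.76), 134 in control cells under OGD (8.71 CPM, 7.30 to 10.3) and 1 in knockdown cells under OGD (0.0511 CPM, 0.00129 to 0.285). The level was thus lower in the knockdown library of each culture, and no 2 of these counting intervals overlap. Knockdown went with a 2.60-fold lower level in normal culture (2.05 to 3.31; log2 ratio -1.29). Under OGD the single read gave a ratio of 171-fold lower with an interval of 30.1 to 6786 (log2 ratio -4.06). OGD itself went with a 1.42-fold lower level in control cells (1.14 to 1.76), and with a 93.0-fold lower level in knockdown cells (16.3 to 3708). The deposited FPKM values, which divide by transcript length, gave the same order: 5.24, 2.86, 1.95 and 0.01 for control normal, control OGD, knockdown normal and knockdown OGD.

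Among genes with at least 100 reads in each of the other 3 libraries, a loss of this kind was rare. Of 9109 genes with at least 100 reads in each of the other 3 libraries, 2 had at most 2 reads in knockdown cells under OGD: Casp9, and Rpph1, the RNA component of RNase P. The same count was 1 (Gfod1) for knockdown cells in normal culture and 0 for either control library. This count was made after the Casp9 reads had been seen. Its limit of 100 reads lies just below the lowest other Casp9 count, 102 in knockdown cells in normal culture. Cd248 falls outside that limit, with 73 reads in control cells and 0 in knockdown cells under OGD. The annotated genes Cela2a and Ctrc overlap Casp9 on the opposite strand, and neither is among the genes of the tables.

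Genes beside Casp9 on chromosome 4 did not share its lower level in knockdown than in control cells under OGD. Within 250 kb, 7 other genes were past the floor of 20 reads, and their log2 ratios for knockdown under OGD ran from -0.12 (Efhd2) to 0.99 (B330016D10Rik), with a median of 0.27 and 0 past the 2-fold rule. Dnajc16, which encodes a DnaJ-family protein and starts at -2.681 kb from the Casp9 start on the opposite strand, held 97 reads in control cells and 186 in knockdown cells under OGD (log2 ratio 0.56). With knockdown in normal culture, Rsc1a1 was the neighbour past 2-fold in the direction of Casp9 (142 against 60 reads, log2 ratio -1.23). With OGD in control cells, Dnajc16 (-1.28) and Efhd2 (-1.11) were past 2-fold lower, beside -0.48 for Casp9. The other neighbours lay there between -0.07 (Plekhm2) and 0.84 (Fblim1). The window was chosen after the Casp9 reads had been seen.

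**Figure D2:**
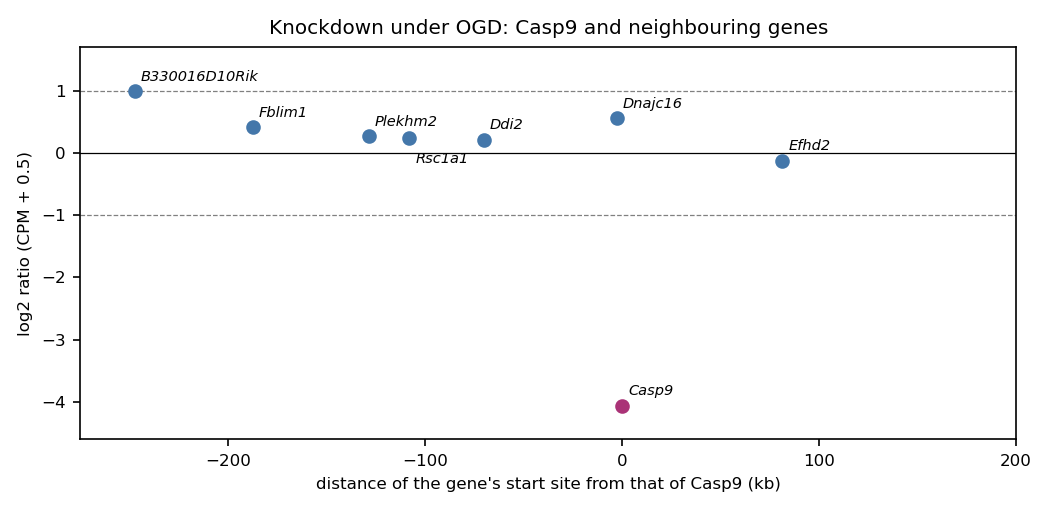
Log2 ratio of knockdown to control cells under OGD (vertical axis, CPM with 0.5 added) for Casp9 and the 7 neighbouring genes with at least 20 reads, against the distance between start sites in kb; dashed lines mark 2-fold. The neighbours lie between -0.12 and 0.99 while Casp9 stands at -4.06.

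By the distance between centred log2 profiles over the 4 libraries, the genes most like Casp9 among 10878 genes with an established symbol and at least 100 reads in their highest library were Cd248 (distance 1.02), Bahcc1 (1.06), Fam189b (1.14), Hipk4 (1.20) and Erg28 (1.30). Cd248, a surface protein of stromal cells, held 358, 124, 73 and 0 reads in control and knockdown cells in normal culture and then in control and knockdown cells under OGD. Bahcc1 held 638, 541, 259 and 32 reads, and Erg28 797, 686, 268 and 46. All 5 were lowest in knockdown cells under OGD, which follows from choosing them by likeness to Casp9. A profile over 4 libraries is short, and Casp9 has the lowest possible count above 0 in one of them.

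Apaf1, the scaffold of the apoptosome, differed little in CPM beside its partner Casp9. The gene lies on chromosome 10 (90989311 to 91082770, minus strand; ENSMUSG00000019979). It held 214 reads in control cells in normal culture (10.9 CPM), 252 in knockdown cells (11.7 CPM), 200 in control cells under OGD (13.0 CPM) and 279 in knockdown cells under OGD (14.2 CPM). Its 4 log2 ratios lay between 0.10 and 0.27, and the counting intervals of 3 of them included no difference. The fourth, OGD in knockdown cells, was 1.21-fold higher (1.02 to 1.45). By FPKM the knockdown ratio in normal culture changed sign (2.70 in control and 2.06 in knockdown cells), so its direction there depends on the unit. For OGD in knockdown cells the FPKM values were 2.06 and 4.48, a log2 ratio of 0.96 in place of 0.27.

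Cycs, the cytochrome c gene, was lower under OGD with either virus. The gene spans 50562563 to 50566538 on the minus strand of chromosome 6 (ENSMUSG00000063694). Its level was 190 CPM with the control virus in normal culture (184 to 196; 3729 reads), 176 CPM in knockdown cells in normal culture (171 to 182; 3784 reads), 106 CPM in control cells under OGD (101 to 111; 1628 reads) and 62.0 CPM in knockdown cells under OGD (58.6 to 65.6; 1214 reads). Both OGD libraries were below both normal libraries, and knockdown cells under OGD were lowest. In control cells the OGD library was 1.80-fold lower (1.69 to 1.91; log2 ratio -0.84). In knockdown cells it was 2.84-fold lower (2.66 to 3.03; log2 ratio -1.50). In control cells the ratio passed the 2-fold rule with total counts (-1.08) and with FPKM (-1.06). Knockdown went with a 1.71-fold lower level under OGD (1.58 to 1.84), and with a 1.08-fold lower level in normal culture (1.03 to 1.13). Processed copies of Cycs are common in mammalian genomes, and how reads shared with them were counted is not given in the sources used here.

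Diablo, whose product antagonises inhibitors of apoptosis, was lowest in knockdown cells under OGD. It spans 123509765 to 123524176 on the minus strand of chromosome 5 (ENSMUSG00000029433). Its levels were 57.0 CPM in control cells in normal culture (1118 reads), 65.5 CPM in knockdown cells in normal culture (1406 reads), 54.5 CPM in control cells under OGD (838 reads) and 32.5 CPM in knockdown cells under OGD (637 reads). The knockdown library under OGD stood below the other 3. Knockdown went with a 1.67-fold lower level under OGD (1.51 to 1.86) but a 1.15-fold higher level in normal culture (1.06 to 1.24). OGD went with a 2.01-fold lower level in knockdown cells (1.83 to 2.21), which on the log2 scale with 0.5 CPM added was just short of the rule at -0.998, and passed it with total counts (-1.01), 0.1 CPM added (-1.01) and FPKM (-1.24). In control cells the log2 ratio for OGD was -0.07 and its interval, -0.20 to 0.06, included no difference. Gm49027, a protein-coding gene on the same strand, and B3gnt4 and AC157931.1, on the opposite one, overlap Diablo, and the latter pair held at most 27 reads in any library.

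Among the caspases upstream and outside of the apoptosome, Casp12 had the widest range. It lies on chromosome 9 (5345430 to 5373032, plus strand; ENSMUSG00000025887). It held 289 reads in control cells in normal culture (14.7 CPM, 13.1 to 16.5), 209 in knockdown cells in normal culture (9.73 CPM, 8.46 to 11.1), 189 in control cells under OGD (12.3 CPM, 10.6 to 14.2) and 463 in knockdown cells under OGD (23.6 CPM, 21.5 to 25.9). Knockdown cells were lowest in normal culture and highest under OGD. OGD went with a 2.43-fold higher level in knockdown cells (2.06 to 2.88; log2 ratio 1.24), and a log2 ratio of -0.25 in control cells (-0.53 to 0.01). Knockdown under OGD gave 1.92-fold (1.62 to 2.29; log2 ratio 0.92), which passed the 2-fold rule with total counts (1.11) and FPKM (1.06). The summed level of the 22 brain cell markers was also higher in knockdown than in control cells under OGD (277 against 45.8 CPM) and lower in normal culture (24.6 against 3075 CPM). With OGD in control cells the sum was 45.8 against 3075 CPM, beside the Casp12 log2 ratio of -0.25. With OGD in knockdown cells both were higher (277 against 24.6 CPM for the sum). The sum was highest in control cells in normal culture, and Casp12 in knockdown cells under OGD. The part of the markers in the Casp12 levels was not tested.

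Casp8, the death receptor initiator, was like Casp12 lowest in knockdown cells in normal culture and highest in knockdown cells under OGD. It lies on chromosome 1 (58795374 to 58847503, plus strand; ENSMUSG00000026029). In normal culture its level was 22.8 CPM with the control virus (448 reads) and 17.4 CPM with knockdown (374 reads), against 23.4 CPM in control cells under OGD (360 reads) and 30.1 CPM in knockdown cells under OGD (590 reads). The control libraries overlapped in their counting intervals, and the knockdown libraries lay on either side of them. OGD in knockdown cells gave 1.73-fold higher (1.52 to 1.98), knockdown under OGD 1.29-fold higher (1.13 to 1.47) and knockdown in normal culture 1.31-fold lower (1.14 to 1.51). OGD in control cells gave a log2 ratio of 0.03, which was -0.20 with total counts and with FPKM. Gm37760, on the same strand, overlaps Casp8 and held between 20 and 67 reads. The marker sums differed in the same directions as Casp8 within each culture and with OGD in knockdown cells. With OGD in control cells the sum was 45.8 against 3075 CPM, beside the Casp8 log2 ratio of 0.03. The sum was highest in control cells in normal culture, unlike Casp8. The part of the markers in the Casp8 levels was not tested.

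Casp2, the PIDDosome caspase, was lowest in control cells in normal culture. The gene is on chromosome 6 (42264985 to 42282508, plus strand; ENSMUSG00000029863). It stood there at 13.3 CPM (261 reads), at 21.2 CPM in knockdown cells in normal culture (456 reads), at 27.0 CPM in control cells under OGD (415 reads) and at 21.2 CPM in knockdown cells under OGD (415 reads). Its level in control cells thus differed between cultures while that in knockdown cells did not beyond counting error. OGD in control cells gave 2.03-fold higher (1.73 to 2.38), a log2 ratio of 0.99 that missed the rule, and that passed it with median-of-ratios scaling (1.04) and with 0.1 CPM added (1.01). With FPKM the Casp2 difference was small: 7.48 in control cells in normal culture and 8.59 under OGD. Knockdown gave 1.59-fold higher in normal culture (1.37 to 1.86) and 1.27-fold lower under OGD (1.11 to 1.46).

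Casp6, the effector among the 8 genes, had the narrowest range in CPM, while in FPKM that was Casp2 (a log2 range of 0.25, against 0.51 for Casp6). It is on chromosome 3 (129901425 to 129914103, plus strand; ENSMUSG00000027997). It held 685 reads in control cells in normal culture (34.9 CPM), 888 in knockdown cells in normal culture (41.3 CPM), 583 in control cells under OGD (37.9 CPM) and 719 in knockdown cells under OGD (36.7 CPM). Only knockdown in normal culture (1.18-fold higher, 1.07 to 1.31) and OGD in knockdown cells (1.13-fold lower, 1.02 to 1.24) had counting intervals that left out no difference, and the second changed sign with FPKM (0.04). For knockdown under OGD its log2 ratio was -0.04, and 0.15 with total counts. For OGD in control cells it was 0.12, and -0.12 with total counts.

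**Figure D3:**
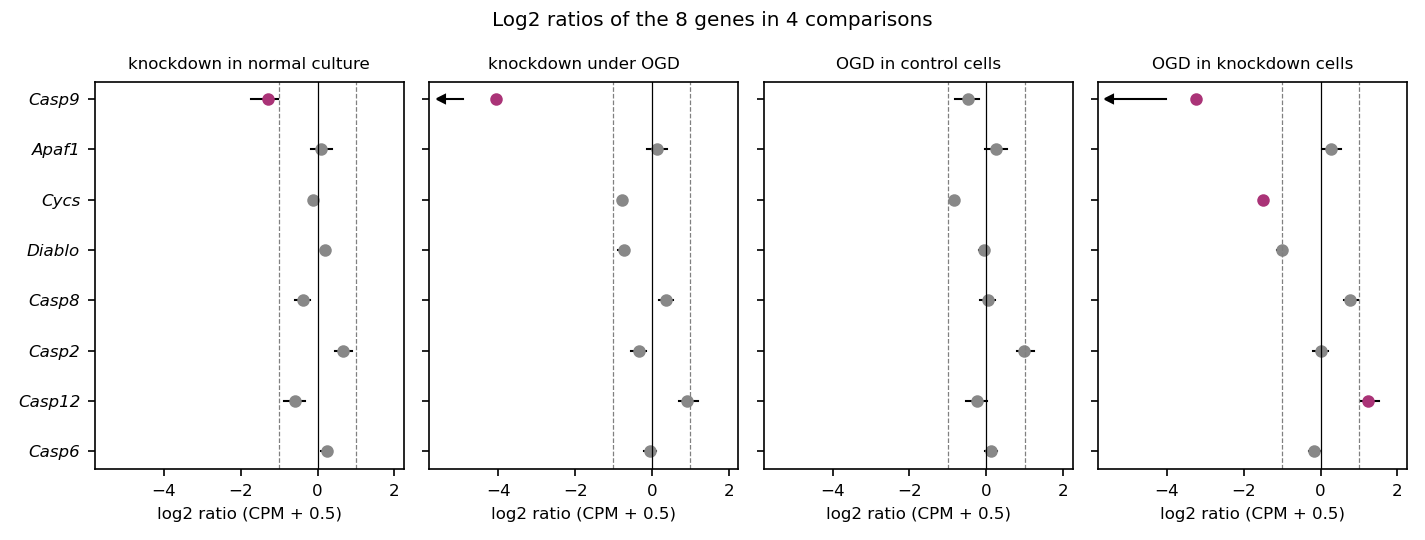
Log2 ratios (horizontal axis, CPM with 0.5 added) of the 8 genes in each of the 4 comparisons (points, coloured past the dashed 2-fold lines) with 95% counting intervals (lines) computed without the added CPM, so that the interval of Casp9 against 1 read lies left of its point and runs beyond the axis (arrow). Casp9 is past 2-fold in 3 comparisons, Cycs and Casp12 in OGD in knockdown cells.

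Counted by comparison, few members passed the size rule. With knockdown in normal culture 1 of 8 was lower (Casp9) and 0 higher, where 16.3% of 14554 genes were lower and 6.25% higher. With knockdown under OGD 1 of 8 was lower (Casp9) and 0 higher, against 4.23% and 10.7% of 13388 genes (2.87% and 13.4% with total counts, where Casp12 was higher). With OGD in control cells 0 of 8 passed in either direction, against 22.2% of 14101 genes lower and 9.36% higher (27.0% and 6.14% with total counts, where Cycs was lower). With OGD in knockdown cells 2 of 8 were lower (Casp9 and Cycs) and 1 higher (Casp12), against 16.9% of 14071 genes lower and 19.1% higher. With total counts Diablo was lower there too, against 17.2% of all genes lower and 18.9% higher. Median log2 ratios of the 8 genes in these comparisons were -0.01, -0.19, -0.02 and -0.09, beside medians over all genes tested of -0.03, -0.00071, -0.11 and -0.0020. Total counts moved the median of all genes by 0.19 for knockdown under OGD and by -0.23 for OGD in control cells. The comparisons share libraries, so these counts are not independent of each other.

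The responses to OGD with the 2 viruses were set against each other gene by gene. The log2 ratio for OGD in knockdown cells minus that in control cells was 1.49 for Casp12 (interval 1.18 to 1.91) and 0.74 for Casp8 (0.48 to 1.04). It was -0.99 for Casp2 (-1.32 to -0.72), -0.93 for Diablo (-1.13 to -0.75), -0.66 for Cycs (-0.79 to -0.53) and -0.28 for Casp6 (-0.51 to -0.07). For Casp9 it was -2.77, and without the added CPM its interval ran from -11.4 to -3.48. For Apaf1 it was 0.03 (-0.36 to 0.41), an interval that included no difference. With FPKM several of these values moved: Casp2 to -0.26, Cycs to -0.40, Apaf1 to 0.80 and Casp9 to -1.49, and Casp6 changed sign to 0.32. The Casp9 value also follows the CPM added, at -4.51 with 0.1 CPM and -1.30 with 2 CPM. The Casp6 value was -0.06 with total counts. These intervals hold counting error alone, and with 1 library a group the differences were not tested.

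Levels of different genes can be compared only per length, for which only the deposited FPKM values were at hand. Their relation to the reads was not the same in every library: FPKM over CPM for Apaf1 was 0.247 and 0.176 in control and knockdown cells in normal culture and 0.236 and 0.314 under OGD, so differences between libraries in the FPKM ratios below carry that too. Cycs was the highest member in 3 libraries and Casp6 in knockdown cells under OGD (50.9 FPKM against 36.3 for Cycs and 24.0 for Diablo). In the first 3 libraries the order began Cycs, Diablo, Casp6 and Casp8. Casp9 and Apaf1 filled the lowest places in all 4 libraries: Apaf1 was lowest in control cells in normal culture (2.70 FPKM, against 5.24 for Casp9), and Casp9 in the others. Cycs exceeded Apaf1 37.5-fold in control cells and 48.9-fold in knockdown cells in normal culture, and 15.7-fold and 8.10-fold under OGD. Casp9 was at 1.94 times the FPKM of Apaf1 in control cells in normal culture, at 0.947 times in knockdown cells in normal culture and 0.932 times in control cells under OGD, and at 0.00223 times in knockdown cells under OGD.

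Other genes of the pathway were taken from 6 lists holding 45 symbols, of which 43 were in the tables and 40 passed the floor of reads in each comparison. With knockdown in normal culture 3 were higher and 5 lower, with knockdown under OGD 4 higher and 1 lower, with OGD in control cells 0 higher and 10 lower, and with OGD in knockdown cells 6 higher and 9 lower. Over all genes the shares higher and lower were 6.25% and 16.3%, 10.7% and 4.23%, 9.36% and 22.2%, and 19.1% and 16.9%, in that order. The pathway medians were -0.07, -0.03, -0.51 and -0.28, beside -0.03, -0.00071, -0.11 and -0.0020 over all genes. Of the genes named next, those close to 2-fold or with few reads lost the call under some settings. With 2 CPM added these were Casp1, Gsdme, Cflar and Birc3 with knockdown in normal culture, and Naip6 and Birc2 with knockdown under OGD. With the same setting they were also Casp1 and Casp4 with OGD in control cells, and Naip6 and Naip2 with OGD in knockdown cells. With FPKM they were Casp1 (knockdown in normal culture), Birc2 and Naip6 (knockdown under OGD), and Naip6 and Naip2 (OGD in knockdown cells), and with total counts Cflar (knockdown in normal culture). A floor of 100 reads left out Casp1, Birc3, Sept4, Naip6 and Naip2. With OGD in control cells 33 of the 40 were below 0, where 55.4% of all genes tested were.

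Among the other caspases, Casp1, the inflammasome caspase, held 22 reads in control and 62 in knockdown cells in normal culture (log2 ratio 1.06) and 0 reads in either OGD library. With 3 reads set in place of 0, that is 5.75-fold lower with OGD in control cells and 18.8-fold lower in knockdown cells. The counting limits nearest to no difference were log2 ratios of -2.10 and -3.89. For Casp4, also of the inflammatory group, the OGD library was 2.31-fold lower with the control virus (1.68 to 3.23) and 3.45-fold lower with knockdown (2.64 to 4.56).

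Among inhibitors of apoptosis, whose products DIABLO binds, Birc5 (survivin, also a mitotic protein) was 3.54-fold lower with knockdown under OGD (3.30 to 3.80) and 2.40-fold lower with OGD in knockdown cells (2.24 to 2.58). It held 5023 and 2866 reads in control and knockdown cells in normal culture, and 3026 and 1088 under OGD. Birc2 was 2.21-fold higher with knockdown under OGD (1.55 to 3.21). Its level was 8.67 and 5.31 CPM in control and knockdown cells in normal culture, and 2.80 and 6.18 CPM under OGD. OGD thus went with a 3.10-fold lower Birc2 level in control cells (2.21 to 4.44) and a log2 ratio of 0.20 in knockdown cells. Birc3 was 6.09-fold lower with knockdown in normal culture (2.96 to 14.1, with 50 against 9 reads). Naip2 held 37 reads in knockdown cells in normal culture and 0 under OGD. With 3 reads set in place of 0, that is 11.2-fold lower (counting limit nearest to no difference, log2 ratio -3.12). Naip6 held 31 reads in knockdown cells under OGD and 0 in the other 3 libraries. Set against 3 reads, that is 8.12-fold higher with knockdown and 11.3-fold higher with OGD (counting limits, log2 ratios 2.64 and 3.12). Naip genes are close copies of each other, so the division of their reads is uncertain.

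Among death receptors and their adaptors, Fas, a receptor that signals through Casp8, was 2.66-fold higher with OGD in knockdown cells (2.20 to 3.22), beside a log2 ratio of -0.07 in control cells. Cflar, the catalytically inactive decoy of Casp8, held 403 and 907 reads in control and knockdown cells in normal culture (2.05-fold higher, 1.82 to 2.32) and 294 and 300 under OGD, where the knockdown library was 2.76-fold lower than in normal culture (2.42 to 3.15). Pidd1, the scaffold that activates the Casp2 product, was 6.15-fold lower with OGD in knockdown cells (4.32 to 8.99), and its log2 ratio was -1.39 in control cells. Tnfrsf21 (death receptor 6) held 366 reads in control cells in normal culture and between 41 and 80 in the other libraries, and its log2 ratio was -2.18 with knockdown in normal culture and -2.60 with OGD in control cells.

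Faim2, a Fas inhibitor known from neurons, held 463 reads in control cells and 9 in knockdown cells in normal culture, and 16 and 161 under OGD. Ranked from high to low, the libraries stand in the order of the marker sum. Its log2 ratios were -4.71, 2.50, -3.97 and 3.25 for knockdown in normal culture, knockdown under OGD, OGD in control cells and OGD in knockdown cells. Sept4, whose ARTS isoform acts on inhibitors of apoptosis, held 60 reads in knockdown cells under OGD and at most 5 elsewhere (log2 ratios 2.66 with knockdown and 2.71 with OGD). Endog, a mitochondrial nuclease, held 128 reads in control cells in normal culture and between 9 and 20 elsewhere, a log2 ratio of -2.93 with knockdown in normal culture and -1.97 with OGD in control cells. Sept4 and Endog did not keep the order of the marker sum, and the part of other cell types in the Faim2 values was not tested. Among substrates and effectors, Gsdme, a gasdermin cut by caspases, had 236 reads in control and 547 in knockdown cells in normal culture, 2.12-fold higher (1.81 to 2.48).

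**Figure D4:**
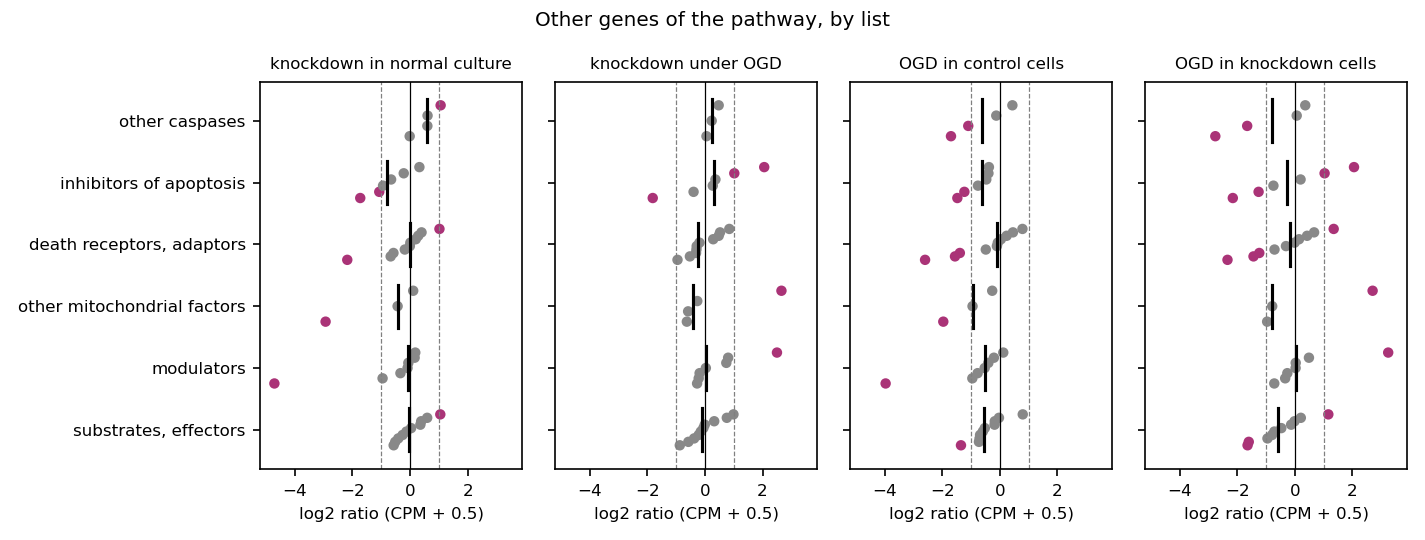
Log2 ratios (horizontal axis, CPM with 0.5 added) of the pathway genes past the floor of 20 reads, by list and comparison (points, 1 gene each, coloured past the dashed 2-fold lines), with the list median as a black bar. With OGD in control cells all 6 medians lie below 0 (the median of all genes was -0.11), and the far points in the modulator row are Faim2.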

How the data were processed

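The members and the pathway and marker lists were chosen with earlier results of these data known. TopHat2 and the build mm10 are named in the submitters' processing notes. The labels' protocol describes dUTP-marked cDNA; the counting program, its annotation and its strand setting were not given in the sources used here. Per the file headers, the authors deposited 4 pairwise tables of scaled mean counts (a signal per library). The numbered columns beside them were read, from the values, as the deposited FPKM. Dividing the scaled counts by their step gave whole reads for 100% of values (tolerance 1e-06), the same from both tables that hold a library. A gene absent from a library's tables was taken as 0 reads.

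TMM factors (1.05 and 1.03 for control and knockdown cells in normal culture, 0.893 and 1.03 under OGD) came from edgeR 4.0.16 in R 4.3.3. No count test was run, since each group holds 1 library. Ratios and exact intervals used scipy 1.17.1, pandas 2.3.3 and numpy 2.4.6 under Python 3.11.15, with matplotlib 3.10.9 for plots. Ratio intervals are conditional binomial, and differences of ratios use the conditional odds ratio, all at 95%. Folds against 0 reads set 3 reads in place of 0 and leave out counting error in the other library. PCR copies carry no molecular identifiers, so intervals cover counting error only. Names and coordinates are those of GENCODE M21 (GRCm38, the assembly of mm10), which matched 19912 of the 20089 genes. Promoters are from RefSeq (8 of 8 members matched). The size rule was checked on simulated Poisson counts, which hold counting error alone and no variation between cultures.

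Named were all 8 members, in each comparison up to 4 pathway genes per direction with the largest ratio past 2-fold, and the 5 genes nearest in profile to the member of widest range. Alternatives were total counts, median-of-ratios factors, 0.1 or 2 CPM added, no floor or 100 reads, and FPKM.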

Additional observations from a re-analysis of the deposited data

Results flagged for a closer look

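For 4 members the log2 ratio of knockdown to control cells had opposite signs in the 2 cultures, with both counting intervals on their own side of no difference. The ratio under OGD minus that in normal culture was 1.49 for Casp12 (from -0.58 to 0.92), 0.74 for Casp8 (from -0.38 to 0.36), -0.99 for Casp2 (from 0.65 to -0.34; with FPKM -0.26, from 0.25 to -0.01) and -0.93 for Diablo (from 0.20 to -0.73). With 1 library a group the difference was not tested.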

How the results depend on the processing

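Leaving out a library was not possible with 1 per group. No paired analysis was possible because each group has 1 library. None of the 8 members' ratios past 2-fold changed sign under the alternatives run. Of the 32 member ratios, 29 kept their sign with total counts and 27 with FPKM, and all 32 with the other alternatives. Counts of members higher or lower moved as follows: with knockdown under OGD, 1 was higher with total counts and 1 with FPKM. With OGD in control cells, 1 was lower with total counts and 1 with FPKM, and 1 was higher with median-of-ratios factors and 1 with 0.1 CPM added. With OGD in knockdown cells, 3 were lower with total counts, 0.1 CPM added or FPKM, against 2 in the main setting. The shares of all genes lower there were 17.2%, 18.3% and 15.2%. Counts of pathway genes moved too, and only the larger changes are given. With knockdown in normal culture and 2 CPM added, 0 were higher and 3 lower, against 1.94% and 10.9% of all genes. With knockdown under OGD, 7 were higher with total counts, 2 with 2 CPM added and 2 with a floor of 100 reads, where the shares of all genes higher were 13.4%, 4.00% and 4.42%. In that comparison 2 were lower with 0.1 CPM added and 2 with no floor, against 4.95% and 4.87% of all genes. The differences of the OGD responses were recomputed under the same alternatives, a step added after seeing the data. The single Casp9 read in knockdown cells under OGD limits how far its ratio can be stated, and FPKM rests on transcript lengths not given in the sources used here.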
